A study of Chlorella variabilis with 6 samples.

Results

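The 6 loci described here are the genes that the study named as a katanin-like protein (CHLNCDRAFT_134244), katanin p60 (CHLNCDRAFT_10674), a dynein heavy chain (CHLNCDRAFT_20468), a dynein light chain of the roadblock kind (CHLNCDRAFT_19114), a kinesin (CHLNCDRAFT_28927) and RME1 (CHLNCDRAFT_33853). They are 6 of the 9625 genes in the count tables, each found by its locus name, and all 6 passed the filter on low counts. They were picked because their counts were lower in LOG OX1 in these same libraries, so the difference between LOG OX1 and WT is given for them as a description, with no test. RNA was sequenced from 3 LOG OX1 and 3 WT cultures of the unicellular green alga Chlorella variabilis NC64A at 14 days post inoculation (dpi), harvested 1 h before the dark phase. LOG OX1 is a single transformed line, selected on hygromycin. It carries a construct with the coding sequence of the alga's own LONELY GUY gene, CvarLOG1, behind the constitutive 35S promoter. LONELY GUY enzymes release the active free base of the plant hormone cytokinin from its nucleotide. WT is the NC64A strain without the construct. With 1 transformed line, the line, the vector, the selection and the overexpressed gene cannot be told apart.

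Katanin is an ATPase of the AAA family that cuts microtubules along their length, and p60 names its catalytic subunit. Dyneins and kinesins are motors that walk along microtubules. Dynein moves toward the minus end, whereas most kinesins move toward the plus end. A dynein heavy chain carries the motor itself, and light chains of the roadblock family bind the intermediate chains of the complex. Flowering plants have lost dynein, whereas flagellated green algae use it in the flagellum and in intraflagellar transport. RME-1 was named in the worm Caenorhabditis elegans. With its mammalian relatives, the EHD proteins, it forms a family of membrane-remodelling ATPases that return endocytosed cargo to the cell surface. The symbol RME1 is also that of an unrelated zinc finger regulator of meiosis in budding yeast, but the protein name listed for CHLNCDRAFT_33853 is that of the RME-1/EHD family.

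The names of all 6 loci rest on best matches to proteins of a brown alga, Ectocarpus siliculosus, and their identity was not checked here. The KEGG pathway terms that the study assigned separate the loci. Katanin p60, the dynein heavy chain and the kinesin carry the term for cytoskeleton proteins, the katanin-like protein and RME1 carry membrane trafficking and endocytosis, and the dynein light chain carries cytoskeleton proteins and membrane trafficking. The katanin-like protein has no microtubule term and is annotated with ATP binding alone. Other AAA ATPases close to katanin act on membranes, and which of these functions the locus has cannot be read from counts. The gene models also differ in extent. In the reference annotation the locus of the dynein heavy chain spans 5572 bp, which could hold at most 1857 codons if it had no introns, although dynein heavy chains are among the largest proteins of a cell. The kinesin locus spans 1245 bp (at most 415 codons) and lies on an inferred scaffold with 2 genes in all. The locus of the dynein light chain spans 474 bp, that of katanin p60 2175 bp, that of the katanin-like protein 2931 bp and that of RME1 4417 bp.

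Total counts were between 10180885 and 12444029 in the LOG OX1 libraries and between 10743741 and 12546100 in the WT libraries. CvarLOG1 (CHLNCDRAFT_28106), measured as a check of the labels, had normalized counts of 437, 464 and 409.6 in LOG OX1 and 227, 227 and 266 in WT. The log2 fold change of 0.86 had a standard error of 0.086, and the quasi-likelihood test of edgeR gave an adjusted p of 1.42e-07 (Benjamini-Hochberg). Normalized counts are counts scaled by edgeR's TMM factors to the mean effective library size, and fold changes are LOG OX1 over WT. Genes were called where the adjusted p was 0.05 or less and the counts differed 1.5-fold or more in either direction, which 28.6% of the genes tested did.

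In each of the 6 loci every LOG OX1 library lay below every WT library. This held for 37.4% of the 9101 genes tested, and the opposite, every LOG OX1 library above every WT library, for 36.9%. All 6 were called lower, as were 14.6% of the genes tested, and nothing is read from these counts because the loci were chosen for this difference. Their log2 fold changes lay between -1.58 and -0.90, beside a median of 0.0010 over all genes tested. Of the genes tested, 2.62% had a lower log2 fold change than the dynein light chain, 4.99% a lower one than the katanin-like protein and 8.07% a lower one than the kinesin. At a limit of 2-fold the kinesin would not be called, and the other 5 loci would. Since whole cultures were sequenced, a smaller share of cells that express a gene and less RNA of it per cell cannot be told apart.

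**Figure D1:**
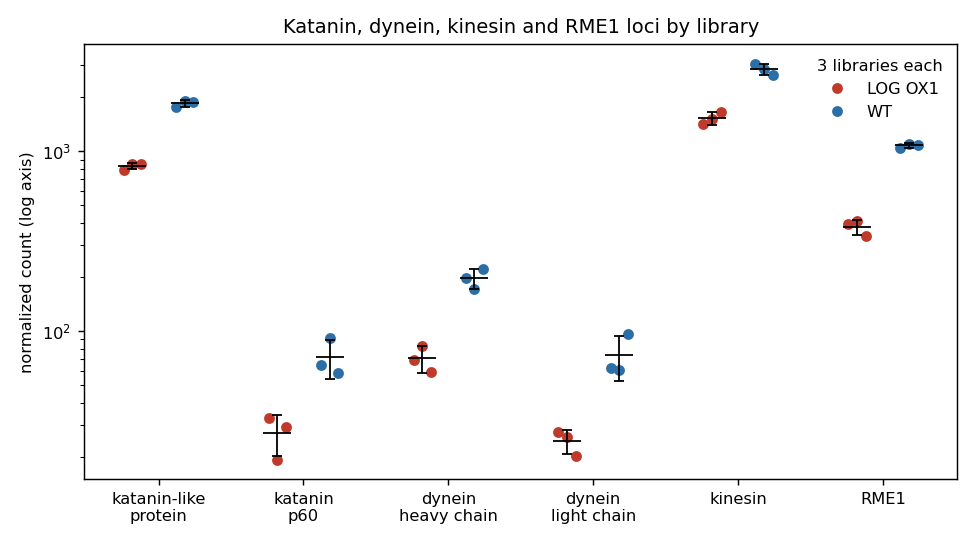
Normalized counts of the 6 loci (log axis) in 3 LOG OX1 and 3 WT libraries; points are libraries, and black bars give the mean ± SD (n = 3). The LOG OX1 points lie below the WT points for every locus, from a mean of 1524 against 2855 for the kinesin to 24.5 against 73.4 for the dynein light chain.

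The katanin-like protein had normalized counts of 787, 853 and 846 in LOG OX1 replicates 1, 2 and 3, against 1756, 1909 and 1886 in WT replicates 1, 2 and 3. The replicates of each group lay close together, and the lowest WT library had 2.06 times the count of the highest LOG OX1 library. The log2 fold change was -1.16 (standard error 0.049), so that LOG OX1 had 44.8% of the WT mean. Katanin p60 was much less abundant. Its normalized counts were 33.0, 19.3 and 29.3 in LOG OX1, against 64.7, 91.4 and 58.7 in WT. WT replicate 2 was the highest and LOG OX1 replicate 2 the lowest, and the groups did not overlap. The log2 fold change of katanin p60 was -1.41 (standard error 0.23). Only 77 counts in LOG OX1 and 223 in WT stand behind this value, and counting error alone allows a LOG OX1 to WT ratio between 0.284 and 0.485 (95% exact binomial interval).

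The katanin-like protein outnumbered katanin p60 in every library. The ratio of their normalized counts was 32.3 ± 10.5 (SD, n = 3) in LOG OX1 and 26.7 ± 5.63 (SD, n = 3) in WT, and the ratios of the groups overlapped. Per kilobase of gene span, introns included, the katanin-like protein had 283 ± 12.4 (SD, n = 3) normalized counts in LOG OX1 and 631 ± 28.2 (SD, n = 3) in WT. Katanin p60 had 12.5 ± 3.24 (SD, n = 3) per kilobase in LOG OX1 and 32.9 ± 8.001 (SD, n = 3) in WT.

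The dynein heavy chain had normalized counts of 69.2, 82.9 and 59.6 in LOG OX1, against 197, 171 and 223 in WT. No libraries overlapped, and LOG OX1 had 35.8% of the WT mean. Its log2 fold change was -1.47 (standard error 0.14). The dynein light chain, by its listed name a small subunit of a dynein, had normalized counts of 27.5, 25.8 and 20.3 in LOG OX1, against 62.6, 60.9 and 96.7 in WT. WT replicate 3 stood above the other two WT libraries, and it was also the highest library for the heavy chain. The log2 fold change of the light chain was -1.58 (standard error 0.23), the largest decrease of the 6 loci, and the fit without WT replicate 3 gave -1.32. With 71 counts in LOG OX1 and 231 in WT, counting error alone allows a ratio between 0.251 and 0.435 (95% exact binomial interval).

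The heavy chain had 2.89 ± 0.35 (SD, n = 3) times the normalized count of the light chain in LOG OX1 and 2.76 ± 0.42 (SD, n = 3) times in WT, and the ratios of the groups overlapped. Per kilobase of gene span the order was the other way round. The light chain had 51.7 ± 7.97 (SD, n = 3) normalized counts per kilobase in LOG OX1 and 155 ± 42.5 (SD, n = 3) in WT, whereas the heavy chain had 12.7 ± 2.10 (SD, n = 3) in LOG OX1 and 35.4 ± 4.64 (SD, n = 3) in WT. Whether the products of these dynein genes belong to the same complex was not tested. Per kilobase the heavy chain and katanin p60 were the lowest of the 6 loci, and their levels did not differ beyond their spread in either group.

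The kinesin was the most abundant of the 6 loci and the one that changed the least. It had normalized counts of 1410.1, 1517 and 1646 in LOG OX1, against 3064, 2855 and 2647 in WT. The lowest WT library exceeded the highest LOG OX1 library 1.61-fold, the narrowest gap of the 6 loci. On the log2 scale the difference was -0.90 (standard error 0.059), and LOG OX1 had 53.4% of the WT mean. As a result the kinesin took 53.4 ± 2.32% (SD, n = 3) of the summed normalized counts of the 6 loci in LOG OX1 and 46.6 ± 2.73% (SD, n = 3) in WT. It also led per kilobase of gene span, with 1224 ± 94.9 (SD, n = 3) normalized counts in LOG OX1 and 2293 ± 168 (SD, n = 3) in WT.

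RME1, the endocytic recycling ATPase by its listed name, had normalized counts of 392, 409 and 336 in LOG OX1, against 1043, 1103 and 1088 in WT. It showed the widest gap, with a lowest WT library 2.55 times the highest LOG OX1 library. The log2 fold change was -1.503 (standard error 0.064), and LOG OX1 had 35.2% of the WT mean. The share of RME1 in the summed counts of the 6 loci was 13.3 ± 1.63% (SD, n = 3) in LOG OX1 and 17.6 ± 0.662% (SD, n = 3) in WT. Per kilobase of gene span it had 85.9 ± 8.61 (SD, n = 3) normalized counts in LOG OX1 and 244 ± 7.06 (SD, n = 3) in WT, below the katanin-like protein and above the dynein light chain in both groups.

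**Figure D2:**
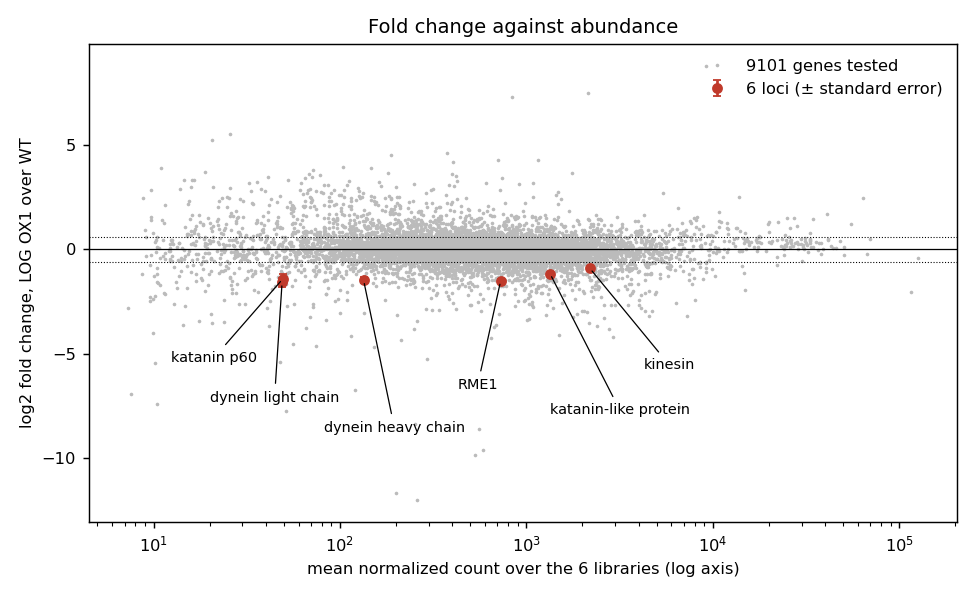
Log2 fold change, LOG OX1 over WT, against the mean normalized count over the 6 libraries (log axis) for the 9101 genes tested (grey) and the 6 loci (red, ± standard error); dotted lines mark a fold change of 1.5 in each direction. The 6 loci lie between -1.58 and -0.90 and span a wide range of abundance, with katanin p60 and the dynein light chain at the low end.

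Together the 6 loci took 0.0249 ± 0.0010% (SD, n = 3) of all normalized counts in LOG OX1 and 0.0543 ± 0.0012% (SD, n = 3) in WT. The kinesin and the katanin-like protein make up most of this sum.

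The spread between replicates is given as a description, since the study's choice of genes by adjusted p depends on it. The coefficient of variation of the katanin-like protein was 4.39% in LOG OX1 and 4.46% in WT, where counting error alone would give 3.54% and 2.28%. That of the kinesin was 7.75% in LOG OX1 and 7.31% in WT, above the medians of 3.42% and 2.87% among the 200 genes nearest to it in abundance. RME1 varied by 10.03% in LOG OX1 and by 2.89% in WT, where its 200 nearest genes had medians of 5.32% and 3.89%. For the katanin-like protein these medians were 3.82% in LOG OX1 and 3.43% in WT. The least abundant loci varied the most. Katanin p60 had 25.9% in LOG OX1 and 24.3% in WT, the dynein heavy chain 16.6% and 13.1%, and the dynein light chain 15.4% and 27.5%. For the dynein light chain in LOG OX1 the observed spread was below the 20.6% of counting error alone, and in WT it was above the 11.4% that counting error gives. With 3 libraries in each group these coefficients are themselves imprecise.

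**Figure D3:**
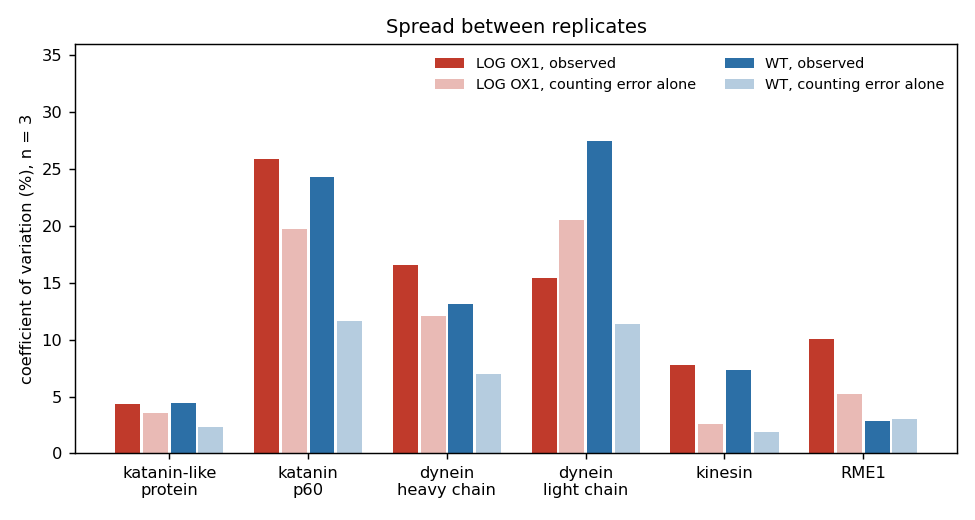
Coefficient of variation of normalized counts between the 3 replicates of LOG OX1 and of WT (dark bars) for each of the 6 loci, beside the value that counting error alone gives at the mean raw count (pale bars). Katanin p60 varied the most in LOG OX1 (25.9%) and the dynein light chain in WT (27.5%), and the katanin-like protein varied by 4.39% in LOG OX1 and 4.46% in WT.

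The genes next to the loci in the reference annotation were not chosen for their counts and could be tested. Of 11 immediate neighbours, 10 were in the count tables and were tested, and none overlapped the locus beside it. In edgeR's test 1 of the 10 was called lower in LOG OX1 and 0 higher, beside 14.6% and 14.0% of all genes tested. DESeq2 gave the same counts. At an unadjusted p under 0.05 and with no fold limit, 6 of the 10 were lower and 1 was higher (CHLNCDRAFT_35549), beside 37.0% lower and 36.8% higher among all genes tested. The neighbour called lower was CHLNCDRAFT_145616, next to katanin p60, with a mean normalized count of 673 in LOG OX1 and 1200 in WT and an adjusted p of 1.88e-10 (edgeR, Benjamini-Hochberg). Its log2 difference was -0.83 with a standard error of 0.050, which falls short of a 2-fold difference. On the other side of katanin p60, CHLNCDRAFT_145612 differed by -0.22 on the log2 scale (standard error 0.057). The neighbours of the katanin-like protein, CHLNCDRAFT_134243 and CHLNCDRAFT_35549, had -0.11 (standard error 0.059) and 0.34 (standard error 0.036). Those of the dynein heavy chain, CHLNCDRAFT_14485 and CHLNCDRAFT_142266, had 0.068 (standard error 0.11) and -0.25 (standard error 0.044). RME1 lies between CHLNCDRAFT_137900, with -0.28 (standard error 0.098), and CHLNCDRAFT_137903, with -0.042 (standard error 0.13). The remaining neighbours, CHLNCDRAFT_19326 beside the dynein light chain and CHLNCDRAFT_145637 beside the kinesin, had -0.24 (standard error 0.057) and -0.26 (standard error 0.054).

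The genes whose counts followed the loci most closely were found by the Pearson correlation of log2 normalized counts, with 1 added, with the mean standardized profile of the 6 loci over the 6 libraries. The 5 closest were CHLNCDRAFT_59064, CHLNCDRAFT_52093, CHLNCDRAFT_141561, CHLNCDRAFT_49546 and CHLNCDRAFT_138112, with log2 fold changes of -0.89, -0.69, -2.15, -1.39 and -0.95. None of these 5 carries a functional name in the study's lists. With only 2 groups, this likeness follows mainly the difference between LOG OX1 and WT, and 830 genes had a correlation of at least 0.99. Among the loci themselves the correlation with their mean profile was 0.996 for RME1, 0.995 for the katanin-like protein and 0.919 for katanin p60. Each locus is part of that mean, and all 6 were chosen as lower in LOG OX1. High values therefore follow from the choice, and nothing is read from them.

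Other listed genes of the cytoskeleton moved in both directions. The lists used here hold only genes that the study had found to differ in these libraries, so counts over these lists are not independent evidence of a direction, and no test is given. Of the 15 genes under cytoskeleton proteins, 9 were called higher and 6 lower, with a median log2 fold change of 0.94, beside 0.0010 over all genes tested. Of the 6 called lower, 4 are loci described here (katanin p60, both dynein genes and the kinesin). The remaining ones were CHLNCDRAFT_36318, listed as a putative AAA family ATPase, with 413 ± 10.9 normalized counts in LOG OX1 and 732 ± 43.8 in WT (SD, n = 3), and CHLNCDRAFT_52395, listed as a leucine-rich repeat protein, with 35.7 ± 1.82 in LOG OX1 and 102 ± 9.17 in WT (SD, n = 3). Their log2 fold changes were -0.83 (standard error 0.061) and -1.51 (standard error 0.16).

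Among the genes already found to differ in these libraries, 12 carry a motor activity term, a list that was drawn up after values had been seen. Motor genes that did not differ are absent from it, so the share called is fixed by that choice and nothing is read from it. Of the 12, 8 were called higher in LOG OX1 and 4 lower. Among those lower were the dynein heavy chain, the dynein light chain and the kinesin. The fourth was CHLNCDRAFT_145586, an uncharacterized protein with a microtubule motor term, at 3298, 3357 and 3362 normalized counts in LOG OX1, against 8052, 8268 and 8033 in WT. Its log2 fold change was -1.28 (standard error 0.038), and its replicates hardly varied. The genes called higher were 4 kinesins or kinesin-like proteins by name, 3 uncharacterized proteins and 1 unconventional myosin, CHLNCDRAFT_26915, a motor of actin filaments. The myosin was higher by 1.95 on the log2 scale (standard error 0.16). None of the 8 was named a dynein.

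The kinesin CHLNCDRAFT_28927 and CHLNCDRAFT_26240 were matched to the same brown alga protein and carry the same name and pathway term, yet their counts differed in opposite directions. CHLNCDRAFT_26240 had normalized counts of 42.9, 39.6 and 48.4 in LOG OX1, against 9.39, 14.3 and 11.7 in WT. Its raw counts in WT were only 9, 15 and 13, so its values are imprecise. Every LOG OX1 library lay above every WT library, and the log2 fold change was 1.86 (standard error 0.25), beside -0.90 (standard error 0.059) for CHLNCDRAFT_28927. The levels differed as well, with 23.7 normalized counts per kilobase of gene span in LOG OX1 and 6.41 in WT for CHLNCDRAFT_26240, against 1224 and 2293 for CHLNCDRAFT_28927. Whether reads are shared between them was not tested. The kinesin-like proteins CHLNCDRAFT_9136 and CHLNCDRAFT_8821 had means of 141 and 158 normalized counts in LOG OX1 and of 33.9 and 44.7 in WT. Summed over the 8 motor genes called higher, the normalized counts lay between 1302 and 1384 in LOG OX1 and between 514 and 572 in WT. Summed over the 4 called lower, they lay between 4805 and 5088 in LOG OX1 and between 11000.1 and 11376 in WT. The genes were sorted by direction before they were summed, so the separation of the groups follows from that sorting. Most of the lower sum came from CHLNCDRAFT_145586 (WT mean 8118) and the kinesin CHLNCDRAFT_28927 (WT mean 2855).

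**Figure D4:**
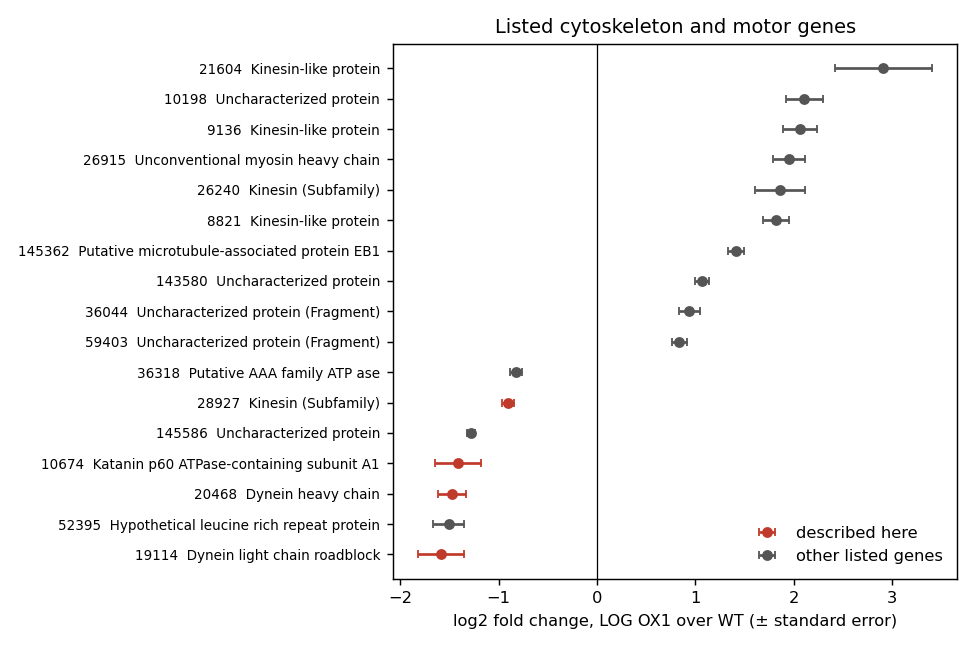
Log2 fold change, LOG OX1 over WT (± standard error), of the 17 genes that the study listed under cytoskeleton proteins or with a motor activity term, by locus number and listed name. Loci described here are red and the others grey. Above 0 lie 10 genes, among them every listed gene named a kinesin except CHLNCDRAFT_28927. The study had found every gene shown to differ in these libraries, so genes that did not differ are absent.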

How the data were processed

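Counts per gene in 3 LOG OX1 and 3 WT libraries were used as deposited. The authors trimmed reads with Trim Galore, used HISAT with default settings for alignment to the NC64A reference, and obtained the counts with HTSeq, without normalization. Tool versions, the annotation release and the strand setting of the counting are not given in the sources used here, so counts of near-identical or overlapping genes are uncertain. All 9625 identifiers matched the RefSeq table of assembly v 1.0, which was used for gene spans and gene order; a new scaffold was assumed where the start position decreased.

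One fit covered all genes: edgeR 4.0.16 (limma 3.58.1, R 4.3.3), filterByExpr with a minimum count of 10, TMM factors, the quasi-likelihood F test with condition as the only term, and Benjamini-Hochberg adjustment over 9101 genes. Standard errors were taken as the absolute log2 fold change over the root of F, and the prior count was 0.125. The code was tested on simulated data. Summaries used Python 3.11.15 with pandas 2.3.3, scipy 1.17.1 and matplotlib 3.10.9. Pairs of replicates differed by more than counting noise (chi-squared per degree of freedom 2.40 to 7.26), and p-values measure the spread between these cultures. The binomial intervals cover counting error only.

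Alternatives were DESeq2 1.42.0, scaling by RLE or upper-quartile factors or by library size, a fit of unfiltered genes or of those with 10 or more counts in all libraries, a replicate block, calls without a fold limit or from 2-fold, and omission of single libraries. Means without WT replicate 3 were added after seeing the data. Genes named are the 6 loci, CvarLOG1, the other genes of the study's lower cytoskeleton list, immediate neighbours and the 5 genes most alike in pattern, and further motor genes were chosen after their values were seen. The loci and the lists were chosen with earlier results of these data known. Lists of sequence relatives, motor and tubulin signatures and promoter motifs were planned and were not analysed here, and levels are per kilobase of gene span in place of coding length. Fold changes and p-values of the authors' own comparison were not used as values. The authors' calls of genes as higher or lower did define the study's lists and sorted the motor genes for the sums.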

Additional observations from a re-analysis of the deposited data

How the results depend on the processing

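All 6 loci kept a negative log2 fold change under every alternative run. Upper-quartile factors moved 3 of them by more than the spread between replicates, to -1.05 for CHLNCDRAFT_134244, -0.79 for CHLNCDRAFT_28927 and -1.39 for CHLNCDRAFT_33853. These factors also moved the median of all genes to 0.11, from 0.0010 with TMM, and the share of higher genes among those called to 61.0%, against 49.0%. When single libraries were omitted, the log2 fold changes lay between -1.19 and -1.12 for CHLNCDRAFT_134244, -1.57 and -1.19 for CHLNCDRAFT_10674, -1.61 and -1.36 for CHLNCDRAFT_20468, -1.70 and -1.32 for CHLNCDRAFT_19114, -0.96 and -0.85 for CHLNCDRAFT_28927, and -1.56 and -1.42 for CHLNCDRAFT_33853.

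Of 2602 genes called, 1193 had a fold change of at least 2, and 6536 were called with no fold threshold. With at least 2-fold required, 3 membrane trafficking genes were called higher in edgeR, against 6 at 1.5-fold, and 0 endocytosis genes, against 1. Lower calls fell too, to 10 of 14 for membrane trafficking, 4 of 6 for endocytosis, 4 of 6 for cytoskeleton proteins and 3 of 4 for motor activity, and the kinesin CHLNCDRAFT_28927 was among those lost. DESeq2 at 1.5-fold also gave 6 and 1. With 10 or more counts required in all libraries, 6 motor activity genes were called higher, against 8, and 8 cytoskeleton genes, against 9. CHLNCDRAFT_26240 was among those lost to this filter. Among the neighbours, 2 that were not called changed sign. CHLNCDRAFT_137903 had 0.069 with upper-quartile factors and lay between -0.18 and 0.048 with single libraries omitted, and CHLNCDRAFT_14485 lay between -0.0042 and 0.20, below 0 only without LOG OX1 replicate 3. The cause was not tested. Upper-quartile factors moved CHLNCDRAFT_145612 to -0.105, CHLNCDRAFT_19326 to -0.126 and CHLNCDRAFT_137900 to -0.173. Their adjusted p with these factors was 0.11, 0.061 and 0.13 (edgeR, Benjamini-Hochberg). CHLNCDRAFT_145616, CHLNCDRAFT_142266 and CHLNCDRAFT_145637 stayed lower with an adjusted p under 0.05.

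No pairing of the cultures by replicate number was detected. Deviations from the group mean correlated at -0.036, -0.0049 and -0.12 for same-numbered cultures. For differently numbered cultures they correlated between -0.099 and 0.115. With 3 cultures in each group this does not exclude that cultures were handled in pairs. With the replicate number as a block, 2603 genes were called, 2593 of them shared with the fit without it, and no call of a locus given here changed. Katanin p60 and the dynein light chain rest on few counts, which limits the precision of their values. The alternatives planned for lists of sequence relatives were not run, since no protein sequences were used here.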

Other observations

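Among the other genes listed under membrane trafficking, the term that the katanin-like protein, the dynein light chain and RME1 carry, 11 of 17 were called lower in LOG OX1 and 6 higher, beside 14.6% and 14.0% of all genes tested. The study had already found every gene of this list and of the endocytosis list to differ in these libraries, so the share called is fixed by that choice and nothing is read from it. The AP complex subunit sigma CHLNCDRAFT_48112, part of a vesicle coat adaptor, had 1020.0 ± 9.88 normalized counts in LOG OX1 and 2270.3 ± 120 in WT (SD, n = 3), which is -1.15 on the log2 scale (standard error 0.047). The genes called higher included enzymes that also belong to other pathways, such as fructose-bisphosphate aldolase CHLNCDRAFT_37179, at 1.10 on the log2 scale (standard error 0.033). Endocytosis held 7 genes, of which 6 were called lower and 1, a heat shock protein 70 (CHLNCDRAFT_19454), higher, beside the same shares of all genes. All of these genes were named after their values had been seen.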
